A study of Arabidopsis thaliana with 16 samples.

Results

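Roots were compared with shoots in wild-type Arabidopsis thaliana plants that had been starved of zinc (Zn). The comparison rests on 4 of the 16 arrays of the series, 2 arrays of Zn-deficient roots and 2 of Zn-deficient shoots, which were chosen by their labels and covered every probe set other than the manufacturer's controls. The plants were 7 weeks old: they spent 4 weeks in hydroponic control medium and a further 3 weeks in Zn-deficient medium. The reference was the difference between 2 arrays of roots and 2 of shoots from wild-type plants of the same age that were moved to control medium in place of Zn-deficient medium. The other 8 arrays of the series came from wild-type and hma2/4 seedlings on agar and served only to set the constant added to every signal and the background level. All 8 arrays used here carried no mutation or transgene according to the labels, which do not name the ecotype or the Zn concentrations. Nothing in the labels ties the 2 replicates of a group to separate plants or cultures, so the spread that p-values are based on could be technical. Expression was measured on Affymetrix ATH1 arrays, on which a gene is read by 1 or more probe sets and the value is a signal with no absolute scale. Levels are therefore compared between organs for 1 probe set at a time and never between genes.

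Zn is a cofactor of many enzymes and transcription factors, and plants take it up through root epidermal cells, move it inward, and load it into the xylem for transport to the shoot. In Arabidopsis the transcription factors bZIP19 and bZIP23 act as Zn sensors and switch on genes for ZIP family uptake transporters when Zn is scarce. Transporters of the MTP family move Zn and other metals out of the cytosol into internal compartments. The shoot carries the photosynthetic apparatus while the root is built for uptake and for contact with the soil, and many transcripts differ between the organs. A difference between organs in whole tissue can come from more cells of a type or from more RNA per cell, and these cannot be told apart here.

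After scaling by the authors, the 8 arrays had median signals from 136.1 to 209.3. Signals of replicate arrays correlated across probe sets with r of 0.9655 in Zn-deficient roots, 0.9515 in Zn-deficient shoots, 0.9775 in control roots and 0.9590 in control shoots. The tissue labels were checked on marker lists, of which 3 of 20 root markers, 5 of 20 shoot markers and 0 of 8 floral markers had a probe set of their own. The 5 shoot markers (LHCB4.2, RCA, PRK, SBPASE and FMA) summed to 36810 to 54403 signal units on the 4 shoot arrays and to 304.5 to 352.0 on the 4 root arrays. Taken alone, FMA did not pass the threshold used below between the Zn-deficient organs. The 3 root markers (EXPA7, EXPA18 and BGLU23) summed to 6290 to 7444 on the root arrays. On the shoot arrays they summed to 199.8 and 406.0 in controls, and to 277.0 on Zn-deficient shoot replicate 2. On Zn-deficient shoot replicate 1 they summed to 1114, and most of that was BGLU23, a myrosinase-type beta-glucosidase of roots, at 990.5. The peroxidase AT3G01190, bright in roots, stood at 8.77 on that array, below background. On the same array the actin signal from the 3' end was 8.57 times that from the 5' end. This ratio was 1.74 to 2.70 on the other shoot arrays and 3.91 to 5.67 on the root arrays. A second pair of actin probe sets did not set this array apart, with a ratio of 1.83 against 1.36 to 2.85 on the other 7. On this array 243 signals stood at the lowest value, against 133 to 209 on the others. The part of these differences in the results below was not tested.

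Zn-deficient roots and shoots differed in a large share of the transcriptome. With limma, 8674 of 17059 probe sets tested, or 50.8%, had an adjusted p under 0.05. Of these, 5527 (32.4% of those tested) were higher in roots and 3147 (18.4%) were higher in shoots. Called differences of at least 2-fold numbered 4708 toward roots (27.6% of those tested) and 2772 toward shoots (16.2%). The arrays of the organs did not overlap for 13049 probe sets (76.5%). At 32-fold or more the order turned, with 234 probe sets higher in roots and 329 higher in shoots. The larger number of root-higher calls depends on the scaling. With the authors' scaling, the median of all organ differences was 0.36 on the log2 scale, and 63.7% of calls were root-higher. With each array centred on its median, the median difference was -0.06, and 46.4% of calls were root-higher, 3663 against 4230. Organ differences smaller than this shift therefore have no settled direction. In control plants, 9358 probe sets (54.9%) passed, 5975 higher in roots (35.0%) and 3383 higher in shoots (19.8%). There median centring took the share of root-higher calls from 63.8% to 49.0%.

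The 12 named genes with the largest differences toward roots stood between 2886 and 16006 on both arrays of Zn-deficient roots and between 1.83 and 57.4 on both arrays of Zn-deficient shoots. Peroxidases of the secreted class, which cross-link cell wall polymers such as lignin and suberin, made up 4 of the 12. AT3G01190 had signals of 13388 and 10052 in Zn-deficient roots and of 8.77 and 4.61 in Zn-deficient shoots, below background, so that it was at least 222-fold higher in roots (limma adjusted p = 2.90e-07). In control plants the signals were 10255 and 13068 in roots and 11.9 and 5.1 in shoots. Neither organ's arrays came near the other's in either medium. The other peroxidases were AT5G64100, at least 205-fold higher in Zn-deficient roots, AT4G26010, at least 96.5-fold, and AT5G17820, at least 86.8-fold. AT4G15390, which encodes an acyltransferase of the BAHD family, had signals of 16006 and 12467 in Zn-deficient roots against 8.68 and 15 in shoots. AT1G12010, an enzyme of the family that makes ethylene from its precursor ACC, had 5792 and 4862 in roots and 8.72 and 2.71 in shoots. AT3G29410, of the terpene synthase family, had 7126 and 3782 in roots and 4.23 and 9.34 in shoots. In controls it had 3872 and 5046 in roots and 26.5 and 50.7 in shoots, so the level in Zn-deficient shoots lay below that in control shoots, with all 4 signals under background. The others were AT4G33720, of the family of pathogenesis-related protein PR-1, the defensin-like gene AT4G22212, AT5G26280, whose protein carries a TRAF-like domain, AT2G21045, of the arsenate reductase family, and AT4G39675. All 12 were also called higher in control roots, and the change of the organ difference between media lay between -1.26 and 1.86 on the log2 scale, with 1 of 12 at an unadjusted p under 0.05 (AT3G29410).

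The 12 named genes with the largest differences toward shoots stood between 3076 and 33100 on both arrays of Zn-deficient shoots and between 1.15 and 39.8 on both arrays of Zn-deficient roots. The gene at the head of the list, AT5G03350, encodes a lectin-domain protein and is known as a target of salicylic acid signalling in leaves. Its signals were 13457 and 19217 in Zn-deficient shoots against 3.88 and 3.52 in Zn-deficient roots, at least 308-fold higher in shoots (limma adjusted p = 5.63e-07). PSAE-1, a small subunit of photosystem I, had 14456 and 17893 in shoots and 3.65 and 11 in roots and was also at least 308-fold higher. AT2G26500, which encodes the PetM subunit of the cytochrome b6f complex, had 13992 and 18588 against 15.7 and 39.8. COR15A, a chloroplast protein that protects membranes in the cold, had 6165 and 17438 in Zn-deficient shoots against 30401 and 27616 in control shoots, and 8.6 and 7.26 in Zn-deficient roots. The replicates of Zn-deficient shoots thus lay far apart for COR15A, and both stood below the control shoots and far above every root array. The defensin gene PDF1.2, an output of jasmonate and ethylene signalling, had 3076 and 12507 in Zn-deficient shoots against 6.56 and 17.8 in roots. The rest were ECS1, a secreted protein of unknown function, AT5G55450, of the lipid transfer protein family, the calmodulin-like gene AT2G41090, AT1G23130, of the major latex protein family, and AT1G76960, AT3G22210 and AT1G09310. All 12 were called higher in control shoots as well, and the change of the organ difference lay between -1.18 and 0.69, with 1 of 12 at an unadjusted p under 0.05, AT3G22210.

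Across probe sets the organ difference was much alike in both media. Of the calls in Zn-deficient plants, 7319 were also called in the same direction in control plants, which is 84.4% of the Zn-deficient calls and 78.2% of the control calls. The 2 differences share no arrays, and across the 17059 probe sets, which are not independent of each other, they correlated with Pearson's r of 0.938 and Spearman's rho of 0.907. Organ-restricted probe sets, with a mean above 1000 in 1 organ and no array of the other above background, numbered 118 for roots and 164 for shoots in Zn-deficient plants. In control plants they numbered 126 and 201, and 77 and 112 met the definition in both media.

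**Figure D1:**
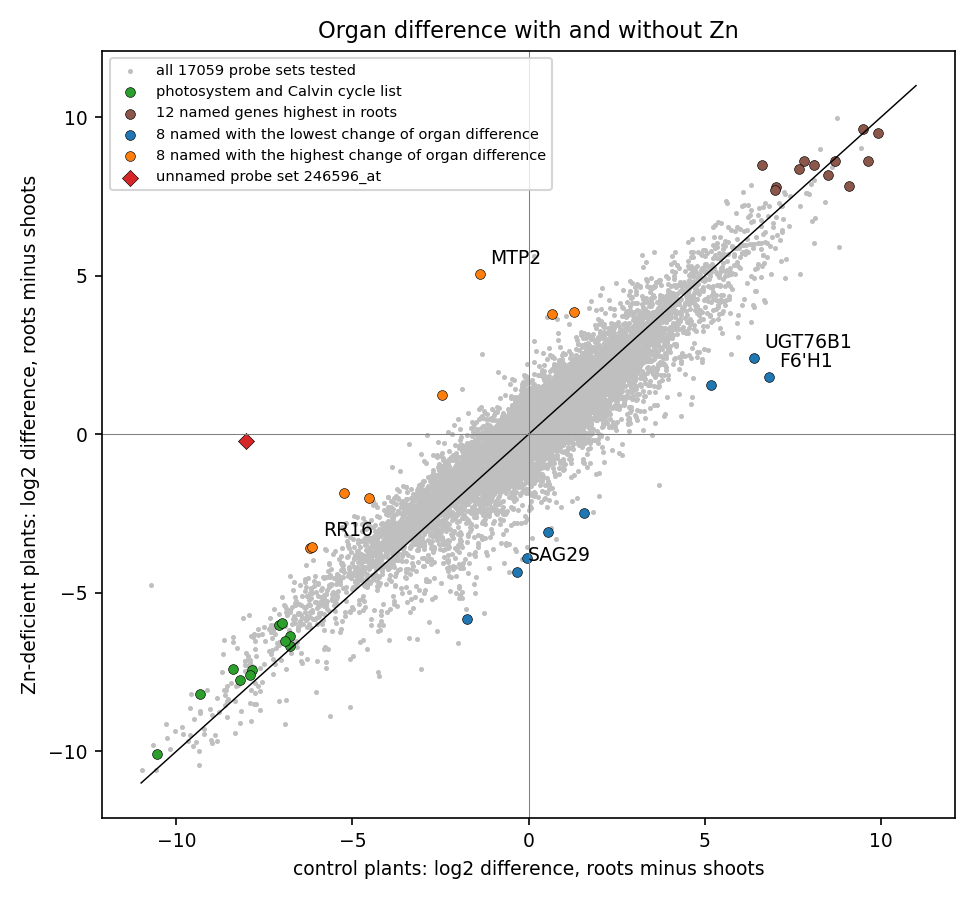
Each point is 1 of 17059 probe sets, placed by the log2 difference of roots minus shoots in control plants (horizontal axis) and in Zn-deficient plants (vertical axis), each a difference of means of 2 arrays; the black line marks equal differences. Most points follow the line (r of 0.938), while MTP2 (5.05 in Zn-deficient plants, all control signals below background) and probe set 246596_at (-8.02 in controls and -0.21 in Zn-deficient plants) lie far above it.

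The genes of Zn transport and sensing differed in how far their organ difference depended on the medium. ZIP9, a transporter of the ZIP family, had signals of 4512 and 3135 in Zn-deficient roots and 3512 and 4895 in Zn-deficient shoots. In control plants it had 187 and 206 in roots and 134 and 109 in shoots. The arrays of both Zn-deficient organs overlapped, and the log2 difference was -0.14 (95% interval -0.79 to 0.51, limma adjusted p = 0.706). ZIP9 thus stood far higher in Zn-deficient than in control plants in both organs, by 4.21 (limma adjusted p = 4.80e-04) on the log2 scale in roots and 5.01 (limma adjusted p = 1.23e-04) in shoots, and the change of its organ difference was -0.80 with an unadjusted p of 0.0785.

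AT1G12030 was below background on all 4 control arrays, at 2.78 and 4.12 in roots and 11.6 and 5.28 in shoots. In Zn-deficient plants it had 1465 and 1094 in roots and 2552 and 1756 in shoots, so that both shoot arrays stood above both root arrays, by 0.74 on the log2 scale, with a limma adjusted p of 0.0925 that missed the threshold. AT1G20380, a prolyl oligopeptidase by family, had 10876 and 8967 in Zn-deficient roots and 7803 and 5248 in Zn-deficient shoots. Its difference of 0.63 toward roots missed the threshold (limma adjusted p = 0.072), whereas in controls, at 419.6 and 373 in roots and 192 and 189 in shoots, the difference of 1.02 passed it. The change between media, -0.40, had an unadjusted p of 0.304.

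MTP2, a metal transporter of the cation diffusion facilitator family that is listed by RefSeq as MTPA1 (AT3G61940), was the named gene for which Zn deficiency changed the organ difference past the threshold. Its signals were 3099 and 2217 in Zn-deficient roots and 60.3 and 84.6 in Zn-deficient shoots, a level 33.1-fold higher in roots (log2 5.05, SE 0.352, limma adjusted p = 8.42e-06). On the 4 control arrays it lay below background, at 4.17 and 1 in roots and 22.5 and 16.3 in shoots, so no fold is given there. The change of the organ difference was 6.43 in log2 units, with SE 0.498 and a limma adjusted p of 0.00486, and 2 of 17059 probe sets, or 0.0117%, passed this test. Since the control part of that change is a difference among signals below background, its size is not exact. In each of 8 fits with 1 array left out the change lay between 6.19 and 6.67, and its limma adjusted p stayed under the threshold in 5 of them and was 0.0550 to 0.0668 in the others, without either Zn-deficient shoot array or Zn-deficient root replicate 1. The Zn-deficient shoot signals were also above background, while the difference between Zn-deficient and control shoots, 1.55, missed the threshold (limma adjusted p = 0.0819).

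For the other tested members of the Zn lists the change of the organ difference did not pass. ZIP6, also of the ZIP family, had 575 and 544 in Zn-deficient roots and 174 and 143 in shoots, 3.42-fold higher in roots (limma adjusted p = 0.00133). The control signals were 606 and 577 in roots and 226 and 132 in shoots, and the change of the organ difference was 0.05, with a 95% interval of -0.91 to 1.00. BZIP19, 1 of the Zn sensors, had 1865 and 1547 in Zn-deficient roots and 864 and 588 in shoots, 2.37-fold higher in roots (limma adjusted p = 0.00568), and the control signals were 1792 and 1911 in roots and 869 and 649 in shoots. The related BZIP24, known from salt responses, did not pass, with 82.9 and 83.7 in roots and 95 and 90.6 in shoots. MTP11, a manganese transporter, and MTP12 did not pass either, with log2 differences of 0.20 and -0.12, of which the first turned below 0 with quantile normalization and with median centring. The metallothionein gene MT1C, which encodes a small metal-binding protein, was 3.56-fold higher in Zn-deficient roots, at 10488 and 12554 against 3108 and 3340 in shoots (limma adjusted p = 8.17e-05). MTP8 lay below the filter on low signals, with 35.9 and 43.9 in Zn-deficient roots and 11.9 and 2.78 in Zn-deficient shoots, and with 151.5 and 110.6 in control roots. The ZIP list has 15 genes and the efflux and sequestration list 15, of which 2 and 4 had a probe set of their own, and the rest were not analysed here.

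**Figure D2:**
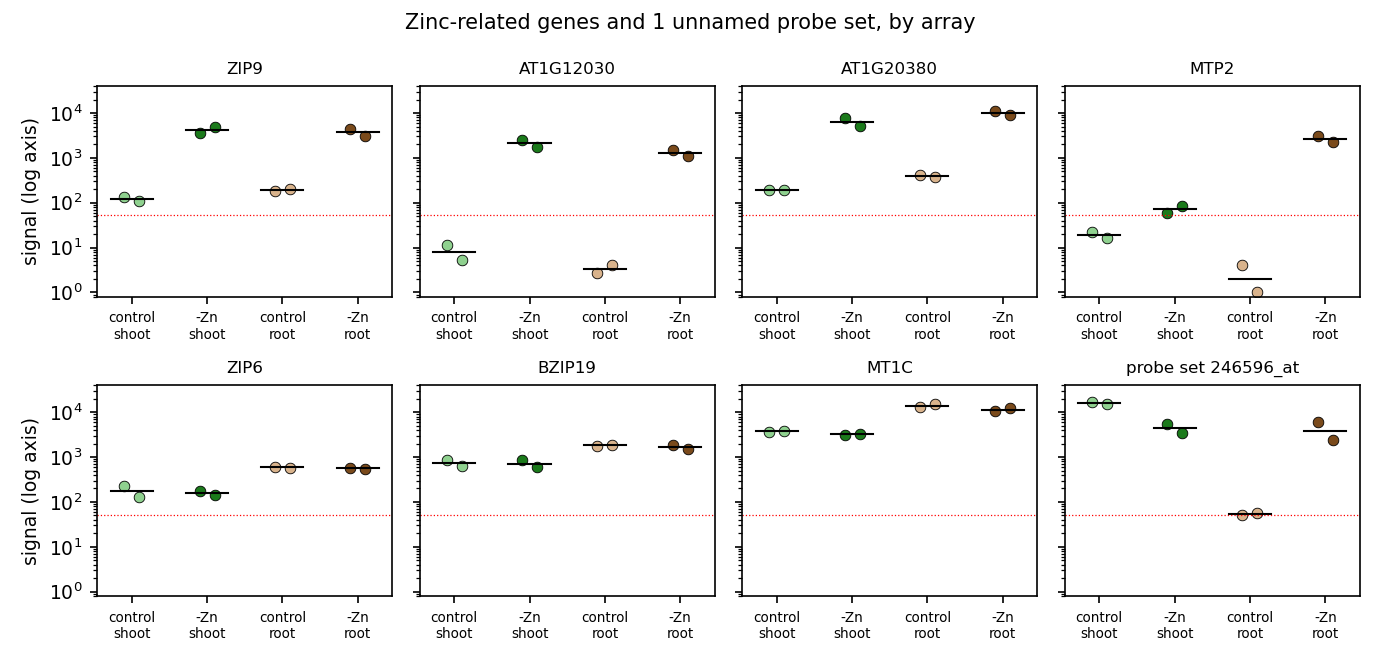
Signal on each of the 8 arrays (log axis; points are arrays, the bar is the geometric mean of 2 arrays, the dotted line is the background of 52.2) for 7 genes of the Zn lists and 1 unnamed probe set. ZIP9, AT1G12030 and AT1G20380 were high in both organs of Zn-deficient plants, while MTP2 was at least 2217 in Zn-deficient roots and at most 84.6 on the other 6 arrays.

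The second probe set past the threshold for a changed organ difference, 246596_at, is not paired with a gene in the annotation used and stays unnamed. Its signals in control shoots were 16966 and 15142, and in control roots 50.2 and 58, a log2 difference of -8.02 (limma adjusted p = 1.33e-06). In Zn-deficient plants the shoots had 5390 and 3528 and the roots 5941 and 2387, so that the arrays of the organs overlapped and the difference was -0.21 (limma adjusted p = 0.688). The organ difference changed by 7.80 (SE 0.572, limma adjusted p = 0.00486). Zn-deficient roots were 5.93 above control roots on the log2 scale (limma adjusted p = 4.80e-04), and the difference of Zn-deficient from control shoots, -1.88, missed the threshold (limma adjusted p = 0.0729). With 1 array left out the change lay between 7.15 and 8.46, and its limma adjusted p stayed under the threshold in 6 of 8 fits and not without either Zn-deficient shoot array.

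Of 4 tested genes of iron uptake and coumarins, 1 was called higher in Zn-deficient roots and 0 in shoots, beside 32.4% and 18.4% of all probe sets, and with 1 array left out 1 to 2 were called higher in roots. In controls 2 were called higher in roots and 0 in shoots, beside 35.0% and 19.8% of all probe sets. F6'H1 encodes an enzyme on the path to the coumarin scopoletin, and roots secrete coumarins that mobilise iron. It had 7205 and 8669 in Zn-deficient roots and 2002 and 2547 in Zn-deficient shoots, and the log2 difference of 1.803 (SE 0.885) did not pass (limma adjusted p = 0.12), although both root arrays stood above both shoot arrays. That call depends on the control shoot arrays, which enter the shared estimate of the spread: the limma adjusted p of the same difference was 3.81e-04 without control shoot replicate 1, 4.69e-04 without replicate 2 and 0.00151 on the 4 Zn-deficient arrays alone. With the constant at the 30th percentile the difference was 1.78 and passed as well (limma adjusted p = 0.0229). In control plants the roots had 9382 and 9435 and the shoots 16.1 and 278, a difference of 6.83 that passed (limma adjusted p = 2.67e-04). Both Zn-deficient shoot arrays thus lay above both control shoot arrays, which themselves stood far apart. S8H, the next enzyme of the coumarin pathway, was 5.76-fold higher in Zn-deficient roots (577 and 667 against 79.9 and 127, limma adjusted p = 2.96e-04), as in controls (1393 and 846 against 109.8 and 109). PYE, a regulator of iron deficiency genes, and BGLU42, a glucosidase of the coumarin pathway, had log2 differences of 0.56 and 0.41 that did not pass. The copper chaperone of superoxide dismutase, CCS, had 508 and 182 in Zn-deficient roots and 275 and 189.9 in shoots. Its control shoot arrays, at 2693 and 268, were far apart as well, and its organ difference of 0.40 did not pass.

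Photosynthesis genes made up the clearest shoot group. Of the nuclear genes for photosystems and electron transport, 8 of 46 had a probe set. Of these, 8 of 8 were called higher in Zn-deficient shoots, beside 18.4% of all probe sets. Their median log2 difference was -7.41, against 0.36 over all probe sets tested. LHCB4.2, an antenna protein of photosystem II, had 8407 and 12075 in Zn-deficient shoots against 39.9 and 16.8 in Zn-deficient roots, at least 193-fold higher in shoots (limma adjusted p = 7.45e-07). PSAN, a lumenal subunit of photosystem I, had 8964 and 13284 in shoots and 73.2 and 44 in roots. In Zn-deficient roots the members were at most 79.5, apart from LHCB4.1, at 332 and 172, and ATPC1, a subunit of the plastid ATP synthase, at 87.6 and 119.6. Of the Calvin cycle list 3 of 3 tested genes were called higher in shoots: RCA, which activates Rubisco, 90.9-fold, PRK, which regenerates the substrate of Rubisco, at least 152-fold, and SBPASE 62.6-fold. All 3 tested genes of chlorophyll synthesis were called higher in shoots, over a wide range. PORB, a light-dependent step of that pathway, was at least 84.7-fold higher in Zn-deficient shoots, CHLM 7.86-fold and GSA1, which acts in the first steps shared with heme synthesis, 1.76-fold. The call of GSA1 was lost on the 4 Zn-deficient arrays alone (limma adjusted p = 0.0571) and without Zn-deficient root replicate 1 (0.0822).

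Photorespiration genes did not all follow the photosystems. HPR, the peroxisomal hydroxypyruvate reductase, was at least 86-fold higher in Zn-deficient shoots, the plastid glycolate and glycerate transporter PLGG1 42.8-fold, and GDCT, a subunit of glycine decarboxylase, 3.78-fold. GLYK, glycerate kinase and the last step of the cycle, was called in the other direction. It had 5231 and 6134 in Zn-deficient roots and 1663 and 1169 in Zn-deficient shoots, 4.05-fold higher in roots (limma adjusted p = 3.15e-04). In control plants, with 3610 and 4429 in roots and 2472 and 1836 in shoots, it was 1.87-fold higher in roots (limma adjusted p = 0.0176). The change of its organ difference, 1.11, had an unadjusted p of 0.016 and a limma adjusted p of 0.428.

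Most genes encoded in the plastid genome were also called higher in Zn-deficient shoots, by smaller factors: 46 of 61 tested, beside 18.4% of all probe sets. In roots, 32.4% of all probe sets were called higher. Of 26 tested genes for photosystem and electron transport subunits, 25 were called higher in Zn-deficient shoots, with a median log2 difference of -2.98. The largest difference was that of psbA, which encodes the D1 protein of photosystem II, at 16019 and 14945 in Zn-deficient shoots against 239.6 and 292 in Zn-deficient roots, 56.8-fold. Genes of the NDH complex, which runs cyclic electron flow, were called in 9 of 10, with a median of -2.94, and those of the plastid ATP synthase in 5 of 6, with a median of -2.15. Genes of the plastid's own gene expression, ribosomal proteins and RNA polymerase subunits among them, were called higher in shoots in 7 of 19 and in roots in 0 of 19, with a median of -0.83. Without Zn-deficient shoot replicate 1, 7 were called higher in shoots and 5 in roots, and the median was -0.09. Among these, rps4 was 8.48-fold and rpl33 5.94-fold higher in shoots, while rpl22, at 1377 and 1516 in Zn-deficient roots and 1563 and 247 in Zn-deficient shoots, did not pass. The replicates of shoots lay apart for this group: replicate 1 was above replicate 2 for 46 of 61 plastid genes in Zn-deficient shoots and for 54 of 61 in control shoots, against 21 and 27 in the roots. The median log2 gap between replicates was 0.66 in Zn-deficient shoots, 0.43 in control shoots and under 0.1 in roots.

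The organ differences of most photosynthesis genes lay nearer to 0 in Zn-deficient than in control plants, although no single gene passed the test of the change. For 8 of 8 nuclear photosystem genes, 3 of 3 Calvin cycle genes, 3 of 3 chlorophyll genes and 60 of 61 plastid genes the change of the organ difference was above 0, that is, away from shoots, against 52.2% of all probe sets tested. Of the 61 plastid genes, 19 serve plastid gene expression and not photosynthesis itself. Their highest organ difference was 0.45 in controls and 1.22 in Zn-deficient plants, so not all of them lay nearer to 0. Among the 1731 probe sets at least 4-fold higher in shoots when averaged over both media, 71.4% had a change above 0, with a median of 0.45. That group holds photosynthesis genes as well, so whether the change was particular to them was not tested. A limma unadjusted p under 0.05 for the change was found for 10 of the 61 plastid genes, against 8.88% of all probe sets. The median change was 0.48 for the nuclear photosystem list and 0.63 for the plastid photosystem genes. It was 0.88 for the NDH genes, with 1.39 without Zn-deficient shoot replicate 1 and 0.58 without replicate 2. For the plastid ATP synthase it was 1.02, with 1.74 and 0.43 in those fits. Root signals of several nuclear genes, such as PSAE-1 and LHCB4.2, lay below background in both media, so that their changes have no exact size. In shoots, the median difference between Zn-deficient and control plants was -0.33 for the nuclear photosystem list and -0.46 for the plastid photosystem genes, and no member passed. In roots it was 0.18 and 0.08. Over all settings and fits with 1 array left out, the median change for the nuclear list lay between 0.17 and 0.93, and that for the plastid photosystem genes between 0.47 and 0.82. PORB was below background on all 4 root arrays, and its shoot arrays overlapped between media, with 5708 and 3432 under Zn deficiency and 4786 and 6265 in controls.

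Probe sets were grouped by their organ difference averaged over both media. For the 1731 probe sets at least 4-fold higher in shoots, the median organ difference was -3.55 in control and -3.28 in Zn-deficient plants, and 71.4% had a change above 0. Their median difference between Zn-deficient and control plants was -0.40 in shoots and 0.06 in roots, on the log2 scale. The median change of the organ difference was 0.45, and between 0.32 and 0.51 over all settings and fits with 1 array left out. For the 1979 probe sets at least 4-fold higher in roots, the median difference was 3.09 in control and 2.92 in Zn-deficient plants. Their median change was -0.12, and without Zn-deficient shoot replicate 1 it was 0.05, so its direction rests on that array.

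**Figure D3:**
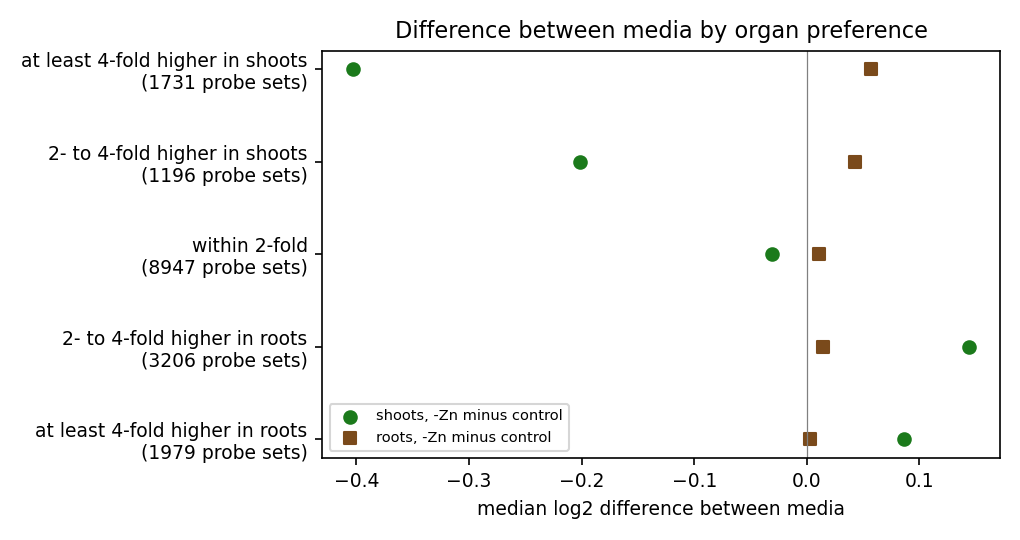
Median log2 difference between Zn-deficient and control plants in shoots (circles) and in roots (squares), for probe sets grouped by their organ difference averaged over both media. Shoot medians ran from -0.40 in the group at least 4-fold higher in shoots to 0.14 in the group 2- to 4-fold higher in roots, and root medians lay between 0.00 and 0.06 in the 5 groups.

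The flavonoid pathway was called higher in Zn-deficient shoots in 7 of 7 tested genes, beside 18.4% of all probe sets, with a median log2 difference of -3.32. In controls 7 of 7 were called higher in shoots as well, beside 19.8% of all probe sets, with a median of -4.41. The signals of DFR, which commits the pathway to anthocyanins, were 60.6 and 47.9 in Zn-deficient roots and 1474 and 460.0 in Zn-deficient shoots, 13.5-fold higher in shoots (limma adjusted p = 2.79e-04). In control shoots it had 2144 and 2179. UGT75C1, an anthocyanin glucosyltransferase, had 1816 and 789 in Zn-deficient shoots, 2837 and 4844 in control shoots and at most 6.23 on any root array, and was at least 22.9-fold higher in Zn-deficient shoots. Both Zn-deficient shoot arrays thus stood below both control shoot arrays for DFR and UGT75C1. For 6 of 7 genes the change of the organ difference was above 0, beside 52.2% of all probe sets. Among the 1731 probe sets at least 4-fold higher in shoots it was above 0 for 71.4%. An unadjusted p under 0.05 was found for UF3GT, 5MAT and UGT75C1, beside 8.88% of all probe sets, and none passed the adjusted threshold. The median change was 1.05, and it was 0.41 without Zn-deficient shoot replicate 2 and 1.88 without replicate 1 and replicate 2 was the lower for 6 of 7. The exception was UGT89C1, a flavonol rhamnosyltransferase, with a change of -0.58.

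Defensins and thionins, small cysteine-rich antimicrobial peptides, were split between the organs. Of 9 tested genes, 5 were called higher in Zn-deficient shoots and 2 in roots, beside 18.4% and 32.4% of all probe sets. PDF1.2b had 4819 and 14645 in Zn-deficient shoots against 40.2 and 68.4 in roots, but its probe set is of a kind that can also read related transcripts, so it is not independent of PDF1.2. THI2.2 had 533 and 535 in shoots and 12.1 and 15 in roots, at least 10.2-fold higher in shoots. PDF1.4 was called higher in shoots, at 162 and 430.4 against 65.1 and 31.2 in roots, and PDF2.2, bright in both organs, was 2.21-fold higher in shoots, a call lost without Zn-deficient shoot replicate 2 or root replicate 1. PDF2.1 went the other way, at 1279 and 2150 in Zn-deficient roots and 28.2 and 35.9 in Zn-deficient shoots, at least 31.7-fold higher in roots. PDF2.5 had 1166 and 1099 in roots and 40.7 and 30.7 in shoots, at least 21.7-fold. PDF2.3, at 4712 and 3880 in roots and 2822 and 3584 in shoots, did not pass, nor did THI2.1. In control plants 4 were called higher in shoots and 2 in roots, beside 19.8% and 35.0% of all probe sets.

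Beside the background of 32.4% of all probe sets called root-higher and 18.4% called shoot-higher, families of cell wall genes gave differing counts. The root hair expansins EXPA7 and EXPA18, which loosen the wall of growing hairs, were both called higher in Zn-deficient roots. EXPA7 had 869 and 359 in roots and 43.4 and 16.5 in shoots, and EXPA18 had 945 and 660.1 and 79.9 and 125, respectively. Of 8 tested expansins of the EXPA family, 4 were called higher in roots and 2 in shoots, and 3 and 2 with median centring. EXPA8 was at least 14.6-fold higher in Zn-deficient shoots. Of 8 tested XTH genes, whose enzymes cut and rejoin xyloglucan chains of the wall, 5 were called higher in roots and 1 in shoots, with a median log2 difference of 3.93, which was 1.83 with the constant at the 30th percentile and 2.63 with the filter at the 50th. XTH18 had 1399 and 1374 in Zn-deficient roots and 95.9 and 46.2 in Zn-deficient shoots, 18.6-fold higher in roots. XTH32 was the member called in the other direction, with 1046 and 1276 in shoots and 117 and 102 in roots. TBL genes, whose enzymes acetylate wall polysaccharides, were called higher in roots in 12 of 18 and in shoots in 2 of 18, with a median of 1.54. TBL39 had 1994 and 1453 in Zn-deficient roots and 253 and 309 in shoots. Glycosyl hydrolases of the GH9 family, which cut cellulose, were called higher in roots in 4 of 10 and in shoots in 0 of 10. Without Zn-deficient root replicate 1, 2 were called higher in roots, and without either control shoot array 6 were. GH9C1, known from root hairs, was at least 16.4-fold higher in roots. LBD16 and LBD29, which start lateral roots, were called higher in Zn-deficient roots, LBD29 with 114 and 112 in roots and 7.47 and 8.07 in shoots.

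Several large families were divided between the organs. The UGT family attaches sugars to hormones and secondary metabolites. Of 32 tested members, 11 were called higher in Zn-deficient roots, 11 in shoots and 10 were not called. Of all probe sets, 32.4% were called higher in roots and 18.4% in shoots, so the root share of the family was near that of all probe sets. The median difference of the family was -0.15. UGT71C1, a glucosyltransferase of phenolic compounds, had 3602 and 2525 in Zn-deficient roots and 31.8 and 58.9 in Zn-deficient shoots. UGT72E2 and UGT72E3, which glucosylate precursors of lignin, were both called higher in roots, UGT72E2 with 1706 and 1900 in roots against 185 and 323 in shoots, and UGT72E3 at least 7.08-fold. On the shoot side, UGT87A2 had 3358 and 2652 in Zn-deficient shoots against 78.2 and 254 in Zn-deficient roots. Its control shoots had 489 and 1017. The change of its organ difference was -2.02 (unadjusted p = 0.0229).

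Sugar transporters of the SWEET family gave 2 genes called higher in Zn-deficient roots and 3 in shoots of 10 tested. Of all probe sets 32.4% and 18.4% were called so, shares that also stand beside the families below. With median centring the SWEET counts were 1 and 3, where 3663 and 4230 of all 17059 probe sets were called. SWEET11, which releases sucrose for loading into the phloem of leaves, had 4403 and 3807 in Zn-deficient shoots against 578 and 227 in roots, 11-fold higher in shoots. SWEET16, a transporter of the vacuole membrane, had 1124 and 854 in Zn-deficient roots and 87.4 and 83.3 in shoots, 10.6-fold higher in roots. SWEET17, of the same membrane, was 1.87-fold higher in Zn-deficient roots (limma adjusted p = 0.0274). Glutathione transferases of the GSTU family, which conjugate toxic compounds, were called higher in roots in 5 of 10 and in shoots in 3 of 10, and GSTU28 had 1991 and 1328 in Zn-deficient roots and 63.1 and 40.7 in shoots. RALFL genes, which encode growth-regulating peptide signals, gave 3 in each direction of 7, and 1 in shoots without Zn-deficient root replicate 1. RALFL34 had 2655 and 4020 in Zn-deficient shoots against 862 and 738 in roots, and RALFL32 had 3101 and 3040 in roots and 555 and 1133 in shoots.

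In housekeeping groups the balance of calls depended on the scaling, while the medians stayed above 0 under every setting run, from 0.30 to 0.84 for ubiquitin enzymes and from 0.35 to 1.00 for vesicle traffic. Of 23 ubiquitin enzymes tested, 10 were called higher in Zn-deficient roots and 1 in shoots with the authors' scaling, and with median centring the count was 4 and 5. Vesicle traffic genes gave 6 and 2 of 17, and with median centring 3 and 3. With 1 array left out, between 1 and 9 vesicle traffic genes and between 5 and 12 ubiquitin enzymes were called higher in roots. The reference genes SAND and TIP41, often used to normalise other measurements, had log2 differences of 0.15 and 0.45 that did not pass, and that of SAND was below 0 with quantile normalization and with median centring. Of 4 tested regulators of shoot development, 2 were called higher in Zn-deficient shoots, beside 18.4% of all probe sets. YAB5 was at least 6.32-fold higher in Zn-deficient shoots, and YAB3 7.5-fold. The other 2 did not pass: PHV differed by 0.59 on the log2 scale toward roots, and FMA leaned to shoots. FMA passed with quantile normalization (-1.34), with median centring (-1.51) and with a replicate block (-1.10). With 1 array left out, the difference of FMA lay between -1.77 (without Zn-deficient shoot replicate 2) and -0.43. That of PHV lay between 0.23 and 0.96 (without Zn-deficient shoot replicate 1).

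**Figure D4:**
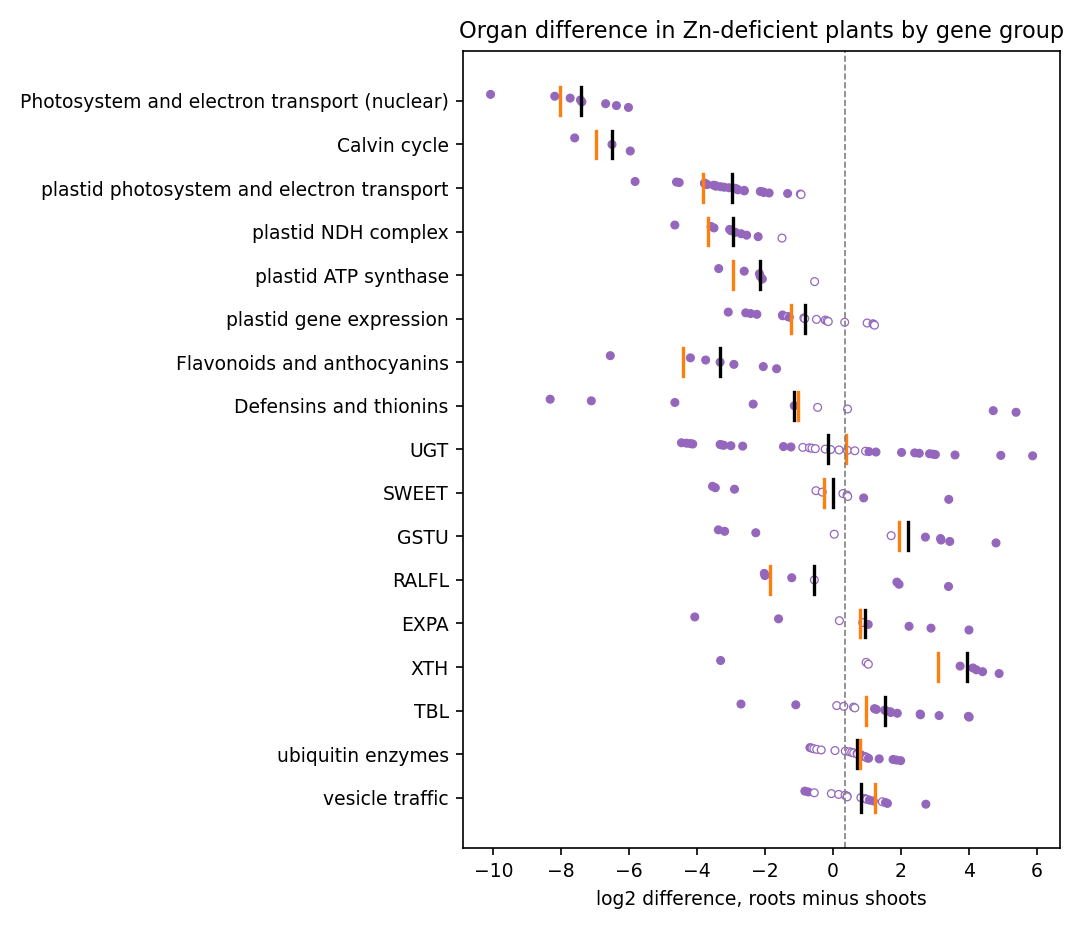
Log2 difference of roots minus shoots in Zn-deficient plants for each tested gene (filled points have a limma adjusted p under 0.05, open points do not), by gene group; black bars are group medians in Zn-deficient plants, orange bars group medians in control plants, and the dashed line is the median of all probe sets (0.36). Photosynthesis and flavonoid groups lie on the shoot side with black bars nearer to 0 than orange ones, and XTH and TBL genes lie mostly on the root side.

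For 2 of 17059 probe sets (0.0117%) the change of the organ difference under Zn deficiency passed the adjusted threshold. With 2 arrays a group, smaller changes could be missed, so this count does not measure how much Zn deficiency added or removed. The change of the organ difference had an unadjusted p under 0.05 for 1514 probe sets (8.88%), the 2 above included, 692 toward roots (4.06%) and 822 toward shoots (4.82%). Its median standard error was 0.46 on the log2 scale, against 0.32 for the organ difference. A count without that test gives 314 probe sets with a called difference of at least 2-fold in Zn-deficient plants and an uncalled one under 0.5 on the log2 scale in controls, 164 higher in roots and 150 in shoots. Of these, 164 had an unadjusted p under 0.05 for the change and 0 an adjusted one. The reverse definition gives 432 probe sets, of which 205 had an unadjusted and 1 an adjusted p under 0.05. Another 9 probe sets, 4 of them named, were called in both media in opposite directions. For MTP2, 1 of them, the control call lies wholly below background.

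Among the named genes with the largest changes toward roots, AT4G37240 was 1 of those 4. It had 949 and 2452 in Zn-deficient roots and 669.9 and 604 in Zn-deficient shoots, while control roots had 237 and 231 and control shoots 1398 and 1232. The change was 3.70 (unadjusted p = 1.16e-04, limma adjusted p = 0.131), and the arrays of the organs were fully separated in each medium, in opposite order. AT3G21670, which encodes NPF6.4, a nitrate transporter family member, had 83 and 50 in Zn-deficient roots and 260.4 and 250.4 in Zn-deficient shoots. Its control signals were 15.9 and 13.4 in roots and 1213 and 595 in shoots, so it was higher in shoots in both media and by less under Zn deficiency (change 3.39, limma adjusted p = 0.147). RR16, a response regulator of cytokinin signalling, had 442 and 416 in Zn-deficient shoots against 1379 and 1016 in control shoots, with all root arrays below background, so that the change has no exact size (2.59, limma adjusted p = 0.219). AT3G53980, of the seed storage albumin and lipid transfer superfamily, had 3012 and 3591 in Zn-deficient roots and 185 and 263 in Zn-deficient shoots. In controls it had 1892 and 1787 in roots and 936 and 598 in shoots, so that the organs were separated in both media and further under Zn deficiency (change 2.56, limma adjusted p = 0.147). AT4G18650, AT4G33660 and AT5G10690 had changes of 3.13, 2.63 and 2.51, none of which passed.

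**Figure D5:**
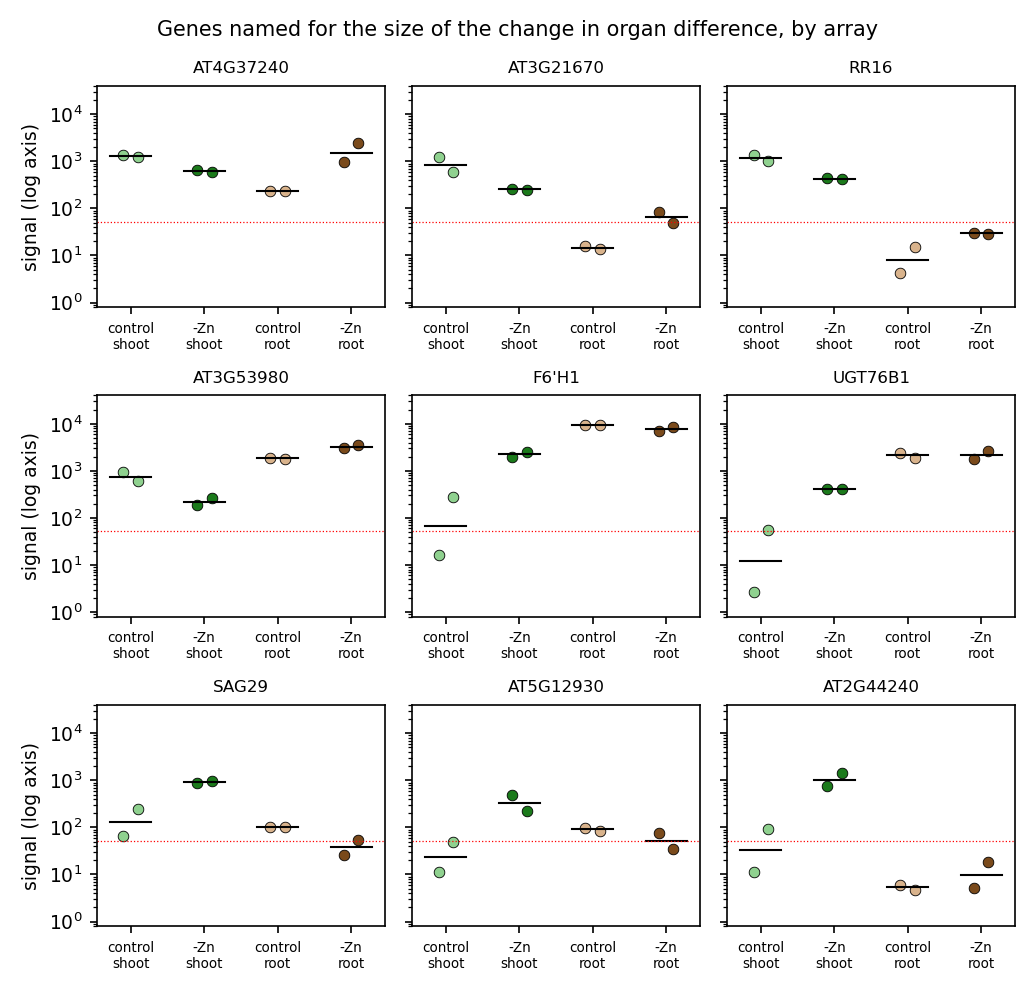
Signal on each of the 8 arrays (log axis; points are arrays, the bar is the geometric mean of 2 arrays, the dotted line is the background of 52.2) for 9 of the genes named for the size of the change in organ difference. In the first 4 panels Zn-deficient shoots lay below control shoots, and in the other 5 both Zn-deficient shoot arrays lay above both control shoot arrays.

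The 8 named genes with the largest changes toward shoots had their changes mainly in shoots. Their differences between Zn-deficient and control shoots ran from 2.31 to 4.77 on the log2 scale, 3 of 8 past the adjusted threshold, and those between roots from -1.31 to 0.47, with 0 of 8 past it. UGT76B1, which inactivates the defence signals salicylic acid and N-hydroxypipecolic acid, had 411 and 404 in Zn-deficient shoots against 2.64 and 54.2 in control shoots. Its root signals were 1781 and 2691 with Zn deficiency and 2457 and 1910 in controls, so that it was 5.29-fold higher in Zn-deficient roots than shoots (limma adjusted p = 0.0164), a call that was lost without either Zn-deficient shoot array, without Zn-deficient root replicate 2 and with the constant at 1 (limma adjusted p from 0.0601 to 0.0862). In controls the log2 difference was 6.402 (limma adjusted p = 7.61e-05). The change was -4.00 (limma adjusted p = 0.322). SAG29, also named SWEET15, is a sugar transporter and a marker of leaf senescence. It had 880.3 and 959 in Zn-deficient shoots, 66.5 and 245 in control shoots, 25.8 and 54.7 in Zn-deficient roots and 104 and 99.9 in control roots (change -4.01, limma adjusted p = 0.207). AT2G44240 had 768 and 1408 in Zn-deficient shoots and at most 94.3 on the other 6 arrays (change -4.09, limma adjusted p = 0.339). AT5G19880, a peroxidase, had 112 and 487 in Zn-deficient shoots and at most 20.2 elsewhere (change -3.86). For these last 2 genes all root signals lay below background, and the changes have no exact size.

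The control shoot arrays bear on this group. Replicate 2 of control shoots was above replicate 1 for 8 of these 8 genes, as with 54.2 against 2.64 for UGT76B1, and for 0 of the 8 genes with changes toward roots. Without control shoot replicate 2, 16 probe sets passed the adjusted threshold for a changed organ difference, 14 of them toward shoots, with F6'H1, UGT76B1 and SAG29 among them (limma adjusted p from 0.00185 for F6'H1 to 0.0355 for SAG29). The part of the difference between these 2 arrays in the counts was not tested. The remaining genes of this kind were AT5G12930, with 483 and 226 in Zn-deficient and 11.2 and 50.1 in control shoots, AT1G10690, and AT1G59660, of the nucleoporin family, whose Zn-deficient root arrays stood at 39 and 907.

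WRKY factors, regulators of defence and senescence, included members with changes in the same direction. Of 5 tested, 2 were called higher in Zn-deficient shoots and 1 in roots, beside 18.4% and 32.4% of all probe sets. In 3 of the fits with 1 array left out (either Zn-deficient root array or Zn-deficient shoot replicate 1), 1 was called higher in shoots. In controls 0 were called higher in shoots and 2 in roots, beside 19.8% and 35.0%. WRKY53, a regulator of leaf senescence, had 1181 and 1567 in Zn-deficient shoots against 108 and 197 in Zn-deficient roots, 8.86-fold higher in shoots (limma adjusted p = 9.24e-04). In controls it had 199 and 613 in shoots and 213 and 201 in roots, a difference that did not pass, and the control shoot arrays stood apart, replicate 2 the higher. The changes were -2.41 for WRKY53, -2.32 for WRKY6 and -1.50 for WRKY47, with unadjusted p of 0.0077, 0.00534 and 0.00499, and none passed the adjusted threshold. The glutamate receptor-like channel gene GLR2.8 had 464 and 344 in Zn-deficient shoots against 116 and 109.8 in control shoots, and 63.2 and 80.6 in Zn-deficient roots, with a change of -1.93 (unadjusted p = 0.00307). The named genes called in opposite directions in the media, beside AT4G37240 and MTP2, were AT4G08850, a leucine-rich repeat receptor kinase, and AT3G25610, a lipid flippase of the P4-ATPase family. Their organ differences were 1.00 and 0.87 in controls and -0.94 and -1.05 under Zn deficiency, with changes of -1.94 and -1.92 that did not pass the adjusted threshold.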

How the data were processed

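RNA from shoots and roots was hybridised to Affymetrix ATH1 arrays. The log2 values deposited by the authors came from MAS5, per the submitters' processing notes; the sources used here give neither its version nor its settings, and every array had a trimmed mean signal of about 500. Values were turned back to signals, the constant 8 (the 10th percentile of all signals) was added, and log2 was taken again. Of 22810 probe sets, 64 controls and those with a mean under the 25th percentile were left out, so that 17059 were tested. A fit of the 4 group means over 8 arrays was made with limma 3.58.1 in R 4.3.3 (intensity trend, Benjamini-Hochberg adjustment over all probe sets tested, threshold 0.05) and was tested on simulated data; tables and plots used Python 3.11.15, pandas 2.3.3, numpy 2.4.6 and matplotlib 3.10.9. A log2 difference on this scale understates the change of dim genes. Background was 52.2 signal units, the highest signal of 3 bacterial control probe sets absent from plants. Where every array of the dimmer organ was at or under it, the fold is given as a bound against that background.

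Genes were named through GEO's platform annotation, in which 13513 probe sets have 1 gene, 503 several and 8794 are unlisted here; 13436 matched a RefSeq TAIR10.1 gene. Of 464 genes on 31 lists, 72 had a probe set of their own, and the rest were not analysed here. The named genes are the list members, the 12 with the largest organ difference in each direction among called genes whose arrays do not overlap and whose brighter mean exceeds the median signal of 184.7, and the 8 in each direction with the largest change of the organ difference at an unadjusted p under 0.05. Family members are named as examples and were picked after their values were seen. The comparison and the lists were chosen with earlier results of these data known. The number of arrays limits the precision. Alternatives were another scaling, constant, filter or variance model, a replicate block, the 4 arrays of the contrast alone, and 1 array left out.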

Additional observations from a re-analysis of the deposited data

Results flagged for a closer look

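The organ difference of MTP2 differed between Zn-deficient and control plants by 6.43 on the log2 scale (limma adjusted p = 0.00486 for the difference itself). All 4 control signals lay below background, so the size of this change is not exact. Both arrays of Zn-deficient roots stood above every other array. For probe set 246596_at, which is unnamed here, the organ difference differed by 7.80 (limma adjusted p = 0.00486), and both root arrays stood far below both shoot arrays in control plants.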

How the results depend on the processing

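The count of probe sets higher in Zn-deficient roots fell from 5527 to 3663 with median centring, and with 1 array left out it lay between 3672, without Zn-deficient root replicate 1, and 6164. The count higher in Zn-deficient shoots lay between 2479 and 3193 in those fits. For control plants the count higher in roots lay between 3892, without control root replicate 1, and 6566. Fitted on its own 4 arrays, the Zn-deficient contrast gave 4553 and 2785, and the change between media could not be fitted that way. The count of probe sets with a changed organ difference was 5 with quantile normalization, 4 with the filter at the 50th percentile and between 0 and 16 with 1 array left out. It was 0 with limma without either Zn-deficient shoot array (2229 at an unadjusted p under 0.05 without replicate 1 and 2463 without replicate 2), 4 without Zn-deficient root replicate 2 and 16 without control shoot replicate 2. Deviations of same-numbered replicates correlated with r from -0.115 to 0.165 between groups, so the numbers were not taken as pairs. With a replicate block the Zn-deficient calls numbered 5606 and 3212, the control calls 6083 and 3444, and the changed organ differences 2.

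Of 105 gene results, 79 kept their direction and their side of the threshold under every alternative run. Of the Zn-deficient organ differences, 4 genes lost a call under at least 1 alternative (GSA1, 5MAT, PDF2.2 and UGT76B1), and 9 uncalled genes gained one, F6'H1, AT1G12030 and AT1G20380 among them. Of the changes between media, MTP2 and probe set 246596_at lost the call, and AT4G37240, F6'H1, SAG29 and UGT76B1 gained one. The organ differences that changed sign were all uncalled. ZIP9 became 0.15 with quantile normalization, 0.0986 when Zn-deficient shoot replicate 2 was left out and 0.12 when Zn-deficient root replicate 2 was, in a range from -0.40 to 0.12 with 1 array left out. MTP11 became -0.0125 with quantile normalization and -0.21 with median centring, and SAND -0.054 and -0.27. With median centring CCS became -0.0117, BGLU42 -0.00723 and UGT74C1 -0.0579. With 1 array left out CCS lay between -0.32 (without Zn-deficient root replicate 1) and 1.12, and THI2.1 between -0.96 and 0.0508 (without Zn-deficient shoot replicate 1). Apart from the rescaling itself and the smaller number of arrays, the cause was not tested. Genes near background have the least certain levels, and 2 arrays a group limit what the change between media can show.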
